A study of Mus musculus with 9 samples.

Results

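The 33 genes described here encode chaperones, folding enzymes, degradation factors, stress sensors and stress targets of the endoplasmic reticulum (ER). They were chosen by name, as known genes of ER protein folding, ER-associated degradation (ERAD), the unfolded protein response and the integrated stress response, with earlier results of these data known, and all 33 were found among the 21470 genes of the table. Liver RNA was sequenced in 9 mouse libraries, in 3 groups of 3: sham, bile duct ligation (BDL), which blocks bile outflow and leads to fibrosis, and BDL with ligustilide (BDL+LIG), a phthalide of Angelica and Ligusticum roots. All 6 ligated libraries share the ligation, and no group received ligustilide without it. The design text gives a dose of 10 mg/kg while the sample titles carry the number 20. The sources used here do not state strain, sex, age or time after ligation. Nor do they say that each library is a separate mouse, so the p-values reflect library-to-library spread alone, and that spread may be technical.

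The ER folds secreted and membrane proteins, and the hepatocyte, which secretes most plasma proteins, carries a large amount of it. When unfolded proteins accumulate, the sensors IRE1 (Ern1), PERK (Eif2ak3) and ATF6 start the unfolded protein response. IRE1 splices Xbp1 mRNA and ATF6 is cut to release a transcription factor, and both raise chaperone and ERAD genes through ER stress response elements. PERK phosphorylates eIF2α, which lowers general translation while favouring translation of ATF4. ATF4 then induces Ddit3 (CHOP), Trib3, Chac1, Asns, Sesn2 and Ppp1r15a, and it can also be raised by amino acid shortage and other stresses through kinases outside the ER. Gene-level RNA shows neither the splicing of Xbp1, nor the cleavage of ATF6, nor the translation of ATF4.

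The promoters are shown because the chaperones and the ATF4 targets, which are described apart, also differ in their sequences. RefSeq promoters (build GRCm38.p6, 250 bases before to 50 bases after the start) were matched by symbol for 30 of the 33 members. Manf, Atf6 and Hyou1 had no entry. The ER stress response element (ERSE: CCAAT, any 9 bases, then CCACG, searched on both strands) was present in 37 of 27025 promoters (0.137%) and in 8 members: Hspa5, Calr, Hsp90b1 with 2 copies, Canx, Pdia6, Dnajc3, Creld2 and Syvn1. Of these, 7 are among the 13 matched chaperones and disulfide isomerases, and 0 of the 6 ATF4 and CHOP branch targets carried it. The second element (ERSE-II: ATTGG, any 1 base, then CCACG) was present in 12 promoters (0.0444%), those of Dnajb11 and Herpud1 among them. The C/EBP-ATF composite element bound by ATF4, TGATGNAA on either strand, was present in 1219 promoters (4.51%), in those of Asns, Chac1 and Trib3 (3 of 6 ATF4 and CHOP branch targets) and in that of Herpud1. The element TGACGTGG was in 193 promoters (0.714%) and in 0 members. A match describes letters only and does not show that a factor binds. The windows of 130 bases below run 5′ to 3′ on the gene's strand, with the matches in capitals; a match on the other strand reads as the reverse complement. The first base of the match lies at position -65 from the start in Hspa5 (chr2:34771960-34772089, plus strand), -162 in Calr (chr8:84847020-84847149, minus strand), -212 and -107 in Hsp90b1 (chr10:86705531-86705660, minus strand) and -126 in Creld2 (chr15:88819464-88819593, plus strand). In Herpud1 (chr8:94386299-94386428, plus strand) the composite element begins at -112 and ERSE-II at -52. The composite element begins at -193 in Chac1 (chr2:119350992-119351121, plus strand) and at -23 in Asns (chr6:7693210-7693339, minus strand).
Hspa5: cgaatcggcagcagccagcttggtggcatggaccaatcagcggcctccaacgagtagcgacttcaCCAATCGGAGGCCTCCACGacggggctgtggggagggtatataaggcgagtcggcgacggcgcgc
Calr: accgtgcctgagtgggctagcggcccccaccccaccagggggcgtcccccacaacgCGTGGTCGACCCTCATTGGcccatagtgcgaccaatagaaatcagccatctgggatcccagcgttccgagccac
Hsp90b1: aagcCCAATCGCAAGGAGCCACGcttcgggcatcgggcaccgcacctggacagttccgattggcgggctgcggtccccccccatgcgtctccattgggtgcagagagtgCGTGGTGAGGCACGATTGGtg
Creld2: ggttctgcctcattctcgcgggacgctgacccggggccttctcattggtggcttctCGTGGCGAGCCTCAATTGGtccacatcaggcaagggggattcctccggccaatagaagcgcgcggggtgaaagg
Herpud1: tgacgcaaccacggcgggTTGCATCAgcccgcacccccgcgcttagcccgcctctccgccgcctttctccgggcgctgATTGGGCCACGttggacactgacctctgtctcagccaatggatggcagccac
Chac1: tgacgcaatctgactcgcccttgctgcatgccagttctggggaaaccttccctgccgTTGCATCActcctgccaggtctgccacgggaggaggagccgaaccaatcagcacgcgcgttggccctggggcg
Asns: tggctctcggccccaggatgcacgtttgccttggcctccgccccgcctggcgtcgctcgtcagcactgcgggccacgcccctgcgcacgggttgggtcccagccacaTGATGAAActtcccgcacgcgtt

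Values are FPKM, which correct fragment numbers for the length of the transcript and the size of the library, so levels can be set side by side between genes. Whole fragments recovered from them summed to 30893098 to 37381734 per library. Changes are log2(FPKM + 1) differences from limma across all 9 libraries, with the standard error and Benjamini-Hochberg adjusted p over the 10142 genes that reached 1 FPKM in 3 or more libraries. All 33 members were tested, and the scale understates changes of genes near 1 FPKM. Between BDL and sham, 13 of 33 members passed, against 29.7% of all genes: 12 rose and 1 fell, against 22.9% and 6.76%. Between BDL+LIG and BDL, 15 passed, against 11.8%: 3 rose and 12 fell, against 9.98% and 1.79%. Between BDL+LIG and sham, 16 passed, against 52.6%: 8 rose and 8 fell, against 43.7% and 8.92%. The median change of the members was 0.28, -0.35 and -0.06 in these comparisons, beside 0.16, 0.18 and 0.34 for all genes tested. Median-of-ratios scaling moved the all-gene medians to -0.06, -0.04 and -0.10, so the members were also fitted on that scale. Changes printed without a value on that scale are from the fit as reported. Under this scaling, 6 members passed with BDL, beside 1427 genes rising and 1488 falling. Dnajb9 and Eif2ak3 rose, and Hyou1, Syvn1, Sel1l and Trib3 fell. With ligustilide against BDL, 0 members rose and 14 fell, beside 257 and 352 genes. There, 23 members passed between BDL+LIG and sham, 3 rising and 20 falling, beside 2059 and 2797 of 9989 genes tested. The BDL libraries enter both the first and the second comparison, so a rise in one and a fall in the other are not independent of each other.

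**Figure D1:**
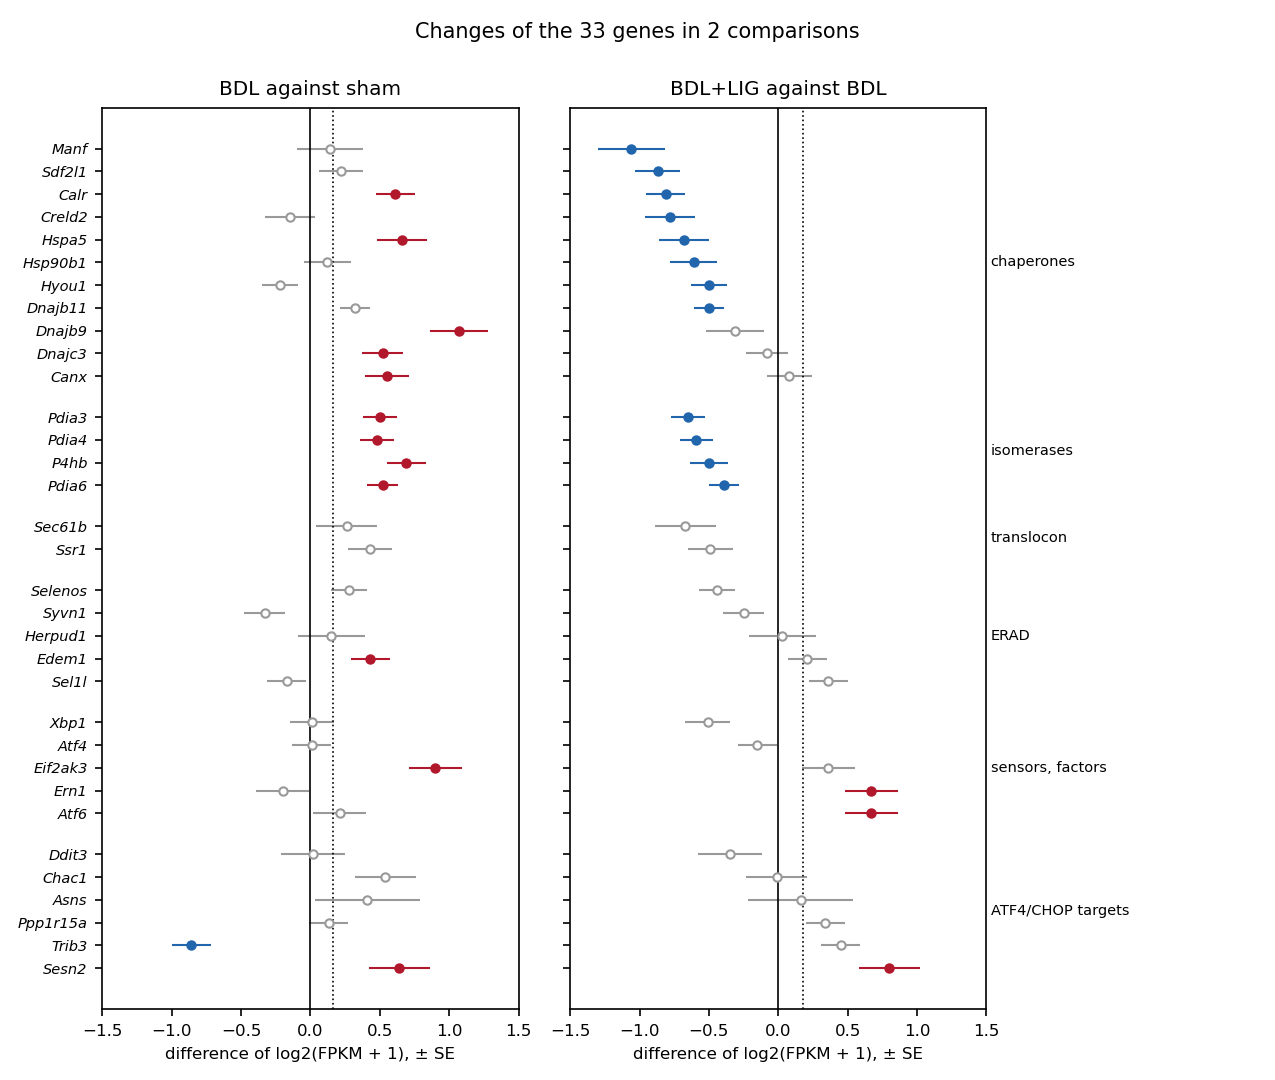
Difference of log2(FPKM + 1) of each of the 33 members, by role, for BDL against sham and for BDL+LIG against BDL; points are limma estimates, bars are standard errors, filled points passed an adjusted p of 0.05 (red higher, blue lower) and the dotted line is the median of all genes tested. With BDL+LIG against BDL, the 12 members that fell are all chaperones or disulfide isomerases, and the 3 that rose are Atf6, Ern1 and Sesn2.

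The ER chaperones and co-chaperones were higher in ligated liver for part of the group and lower with ligustilide for most of it. Of 11 genes, 5 rose with BDL (Calr, Canx, Hspa5, Dnajb9 and Dnajc3) and 0 fell, and 0 fell at an unadjusted p under 0.05. With BDL+LIG against BDL, 8 fell (Calr, Sdf2l1, Creld2, Manf, Dnajb11, Hyou1, Hspa5 and Hsp90b1) and 0 rose, also at an unadjusted p under 0.05. Their summed level was 1208, 1190 and 1212 FPKM in the sham libraries, 1542, 1632 and 1693 in the BDL libraries and 961.5, 999.9 and 1056 in the BDL+LIG libraries. The sums of the BDL libraries stood above both other groups, and those of the BDL+LIG libraries stood below sham. The FPKM of all genes summed to 539095 to 632751 in sham liver, 548241 to 557731 after BDL and 489892 to 505514 after BDL+LIG. As a percent of these totals the chaperones were at 0.224, 0.2 and 0.191 in sham liver, 0.277, 0.296 and 0.309 after BDL and 0.196, 0.201 and 0.209 after BDL+LIG, so that BDL still stood above the rest while sham and BDL+LIG overlapped.

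Calr, the lectin-like, calcium-binding chaperone calreticulin, was among the most abundant members. It measured 418, 448 and 529.8 FPKM in the sham libraries, 716, 699.7 and 701 in the BDL libraries and 444, 355 and 411 in the BDL+LIG libraries. All BDL libraries were above every sham and every BDL+LIG library, while sham and BDL+LIG overlapped. Calr rose with BDL (0.61 ± 0.14, adjusted p = 0.00821) and fell with ligustilide to 0.572 of its BDL mean (-0.81 ± 0.14, adjusted p = 0.013). Hspa5 (BiP), the main Hsp70 of the ER lumen, which also holds the sensors inactive, was at 206, 183 and 131 FPKM in sham liver, 240.3, 271 and 299 after BDL and 143, 173 and 192 after BDL+LIG. It followed the same order, rising with BDL (0.66 ± 0.18, adjusted p = 0.0211) and falling with ligustilide (-0.68 ± 0.18, adjusted p = 0.0414) to levels that overlapped sham (-0.02 ± 0.18, adjusted p = 0.937). Under median-of-ratios scaling both genes fell against sham with ligustilide, Calr by -0.76 (adjusted p = 0.0171) and Hspa5 by -0.58 (adjusted p = 0.0199). Their rises with BDL did not pass on that scale (Calr 0.31, adjusted p = 0.317, and Hspa5 0.37, adjusted p = 0.137).

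A second set of chaperones was not past the threshold with BDL and was lower with ligustilide than in sham. Manf, a secreted protein that binds BiP, was at 110.1, 168 and 190.5 FPKM in sham liver, 157, 170 and 177 after BDL and 55.7, 97.2 and 94.3 after BDL+LIG. Every BDL+LIG library was below every other library, and the ratio to the BDL mean was 0.491 (-1.06 ± 0.24, adjusted p = 0.0247), the lowest of the 33 members. Sdf2l1, a component of the BiP chaperone cycle, was at 27.3, 33.2 and 41.4 FPKM in sham liver, 37, 39.5 and 41 after BDL and 17.4, 22.4 and 23.6 after BDL+LIG. Its sham and BDL libraries overlapped and its BDL+LIG libraries lay below both (-0.87 ± 0.16, adjusted p = 0.0146 against BDL and -0.65 ± 0.16, adjusted p = 0.00713 against sham). Creld2, an ER protein induced in the unfolded protein response, was at 26.9, 26.4 and 29 FPKM in sham liver, 23, 25.1 and 25.7 after BDL and 10.1, 18.3 and 14.5 after BDL+LIG (-0.78 ± 0.18, adjusted p = 0.0247 against BDL and -0.93 ± 0.18, adjusted p = 0.00154 against sham). The BDL+LIG libraries of Creld2 again lay below all others, and the sham libraries lay above all BDL libraries by less than the test could call (-0.15 ± 0.18, adjusted p = 0.56). Hyou1, an Hsp110-type nucleotide exchange factor of BiP, and Hsp90b1 (GRP94), the ER form of Hsp90, fell against both groups: Hyou1 changed by -0.50 ± 0.13, adjusted p = 0.0329 against BDL and -0.72 ± 0.13, adjusted p = 0.000947 against sham, and Hsp90b1 by -0.61 ± 0.17, adjusted p = 0.0439 and -0.49 ± 0.17, adjusted p = 0.0309. Hyou1 and Hsp90b1 libraries with ligustilide were also wholly below both other groups. The BDL libraries of Hyou1 lay below all sham libraries without passing (-0.22 ± 0.13, adjusted p = 0.221). Under median-of-ratios scaling Hyou1 fell with BDL (-0.50, adjusted p = 0.0193).

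Dnajb9, Canx and Dnajc3 rose with BDL and did not pass the test with ligustilide. Under median-of-ratios scaling the rise with BDL passed for Dnajb9 (0.80, adjusted p = 0.0164). It did not pass there for Canx (0.27, adjusted p = 0.179) or Dnajc3 (0.24, adjusted p = 0.202). Dnajb9 (ERdj4), a co-chaperone that recruits BiP to IRE1, was at 18.1, 23.7 and 12.3 FPKM in sham liver, 36.2, 37.5 and 39.8 after BDL and 25.2, 34.6 and 31.9 after BDL+LIG. It rose 2.1-fold with BDL (1.07 ± 0.21, adjusted p = 0.00322), and with ligustilide its libraries were below all BDL libraries without passing the test (-0.31 ± 0.21, adjusted p = 0.318) and above all sham libraries (0.76 ± 0.21, adjusted p = 0.01). Canx (calnexin), the membrane-bound partner of calreticulin in glycoprotein folding, rose with BDL (0.55 ± 0.16, adjusted p = 0.025) and stood at 68.1 ± 2.66 FPKM with ligustilide beside 64.6 ± 6.11 in BDL (SD, n = 3; 0.08 ± 0.16, adjusted p = 0.76). Dnajc3 (p58IPK), an ER co-chaperone, rose with BDL (0.52 ± 0.15, adjusted p = 0.0258) and was at 33.8 ± 1.47 FPKM beside 35.8 ± 3.09 (-0.08 ± 0.15, adjusted p = 0.75). Dnajb11 (ERdj3), a secreted co-chaperone of BiP, measured 23.8 ± 1.93 FPKM in sham and 29.9 ± 2.75 in BDL (0.32 ± 0.11, adjusted p = 0.0592) and fell with ligustilide (-0.50 ± 0.11, adjusted p = 0.026). Against sham, BDL+LIG left Canx, Dnajb9 and Dnajc3 higher and Manf, Sdf2l1, Creld2, Hyou1 and Hsp90b1 lower. Of these, Creld2 and Hyou1 were called in all 9 other settings. Under median-of-ratios scaling the change of Dnajc3 turned from 0.45 to -0.09, and those of Canx (0.08, adjusted p = 0.648) and Dnajb9 (0.23, adjusted p = 0.383) did not pass. On that scale 0 of the 11 chaperones and co-chaperones rose against sham with ligustilide and 8 fell. With the length trend removed Manf (-0.41, adjusted p = 0.0768) and Sdf2l1 (-0.25, adjusted p = 0.112) did not pass, and Hsp90b1 lost its call in 4 of 9 settings.

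**Figure D2:**
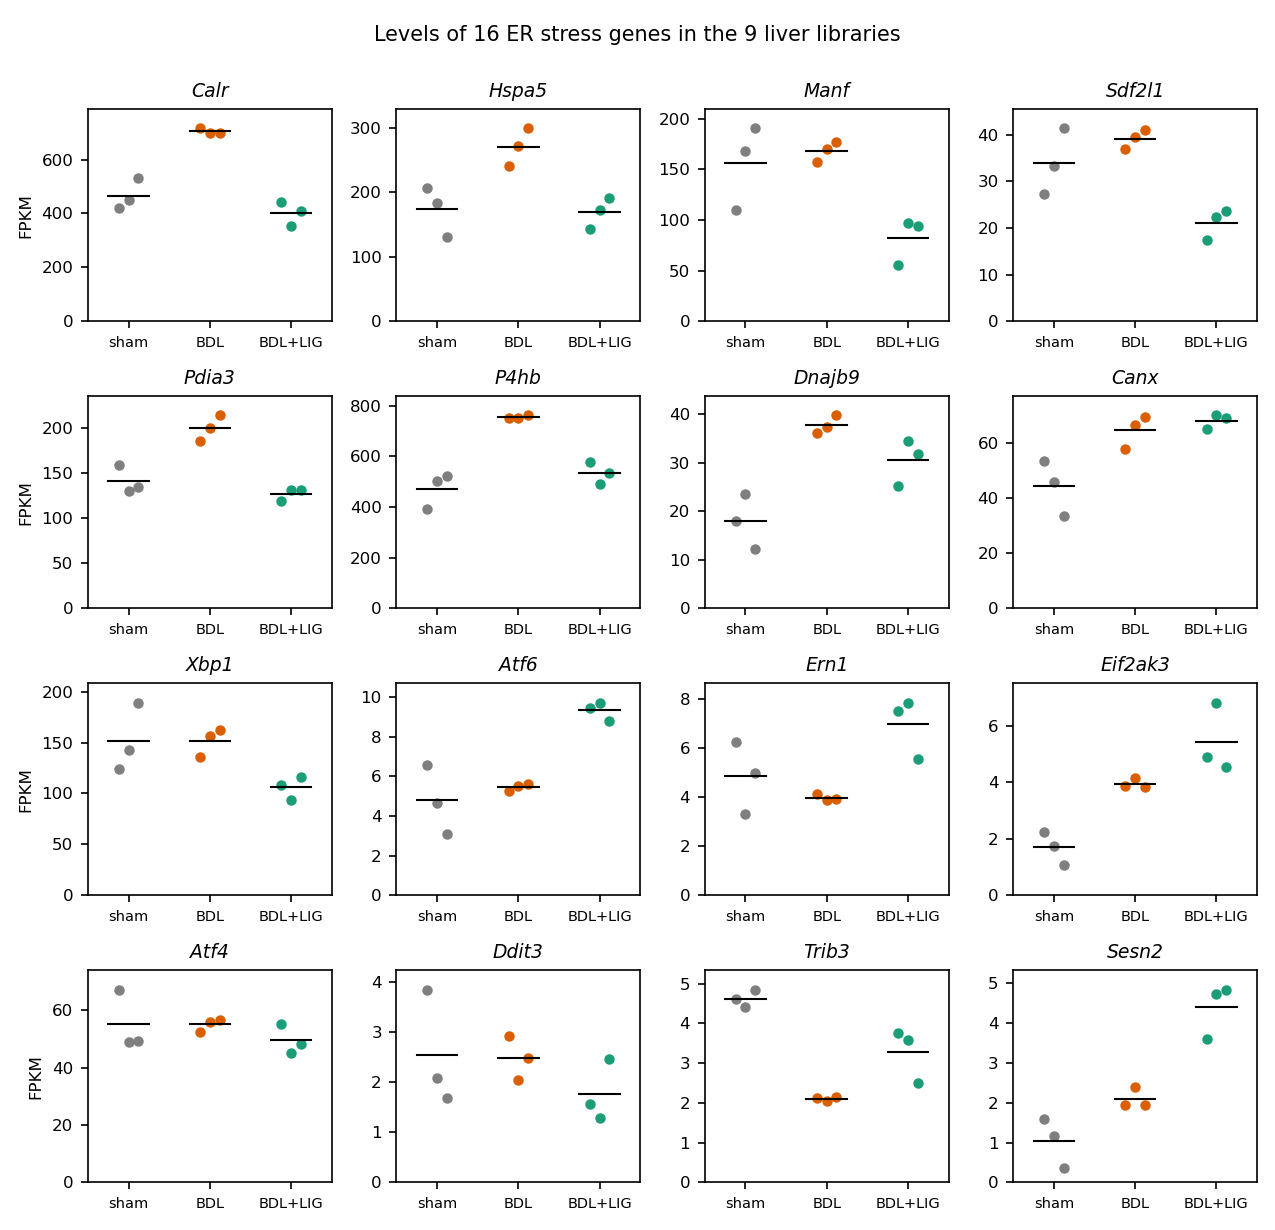
FPKM of 16 members in each of the 9 libraries, a point per library and a line at the group mean, with separate linear axes from 0. The BDL libraries stand above the other groups for Calr, Hspa5, P4hb and Pdia3, and the BDL+LIG libraries stand below both other groups for Manf, Sdf2l1 and Xbp1.

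All 4 protein disulfide isomerases, which form and rearrange disulfide bonds in the ER, rose with BDL and fell with ligustilide in the fit as reported. Under median-of-ratios scaling 0 of 4 rose with BDL and 3 fell with ligustilide against BDL. After TPM rescaling 4 rose with BDL and 1 fell with ligustilide. P4hb and Pdia6 were called as falling with ligustilide in 4 and 3 of 9 other settings. P4hb (PDI), also a subunit of collagen prolyl 4-hydroxylase, was at 394, 502 and 522 FPKM in sham liver, 751, 752 and 761 after BDL and 579, 489.5 and 532 after BDL+LIG (0.69 ± 0.14, adjusted p = 0.00497 with BDL and -0.50 ± 0.14, adjusted p = 0.0465 with ligustilide). Pdia3 (ERp57), which works with calreticulin and calnexin on glycoproteins, was at 159, 130.2 and 134 FPKM in sham liver, 186, 199.9 and 214 after BDL and 119, 131 and 131 after BDL+LIG (0.50 ± 0.12, adjusted p = 0.00985 and -0.65 ± 0.12, adjusted p = 0.0144). For both genes every BDL library was above every other library, and sham and BDL+LIG overlapped. Pdia4 (ERp72) was at 79.7, 61.7 and 65.6 FPKM in sham liver, 92.4, 96.6 and 98.7 after BDL and 63, 59.6 and 67.4 after BDL+LIG (0.48 ± 0.12, adjusted p = 0.0134 and -0.59 ± 0.12, adjusted p = 0.0187). Pdia6 (P5) was at 100.4, 103 and 97.8 FPKM in sham liver, 141, 145 and 148 after BDL and 98.1, 112 and 120.2 after BDL+LIG (0.52 ± 0.11, adjusted p = 0.0052 and -0.39 ± 0.11, adjusted p = 0.0448). Neither gene overlapped between BDL and another group. Between BDL+LIG and sham, 0 of 4 passed the test and 0 had an unadjusted p under 0.05, with changes from -0.15 to 0.18, all of which turned sign under median-of-ratios or TPM rescaling. Under median-of-ratios scaling 3 fell by limma: Pdia3 (-0.70, adjusted p = 0.00198), Pdia4 (-0.67, adjusted p = 0.00264) and Pdia6 (-0.43, adjusted p = 0.0431). After TPM rescaling 2 rose and 0 fell, so their standing against sham depends on the scaling.

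The 15 chaperones and disulfide isomerases together had a median change of 0.50 with BDL, 9 rising, and of -0.59 with ligustilide, 12 falling. The rise with BDL depended on scaling and libraries: with median-of-ratios scaling 1 rose and 1 fell, with a median of 0.21, and without BDL library 2 or 3, 5 and 4 rose, or 6 without sham library 2. The fall with ligustilide was 11 of 15 on that scale (median -0.85), 5 after rescaling to TPM (median -0.45), and 12 in a voom fit of the recovered fragments. Leaving out any 1 BDL library left 0 of the 15 past the threshold by limma, with medians of -0.62, -0.58 and -0.54 and 14 of 15 changes below 0. Over all 33 members, 20, 20 and 21 then had an unadjusted p under 0.05. Without BDL+LIG library 1, 2 or 3, 5, 4 and 3 of the 15 fell, and 8 without sham library 2. Calr, Sdf2l1 and Pdia3 fell in each of the 9 settings that kept every library.

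**Figure D3:**
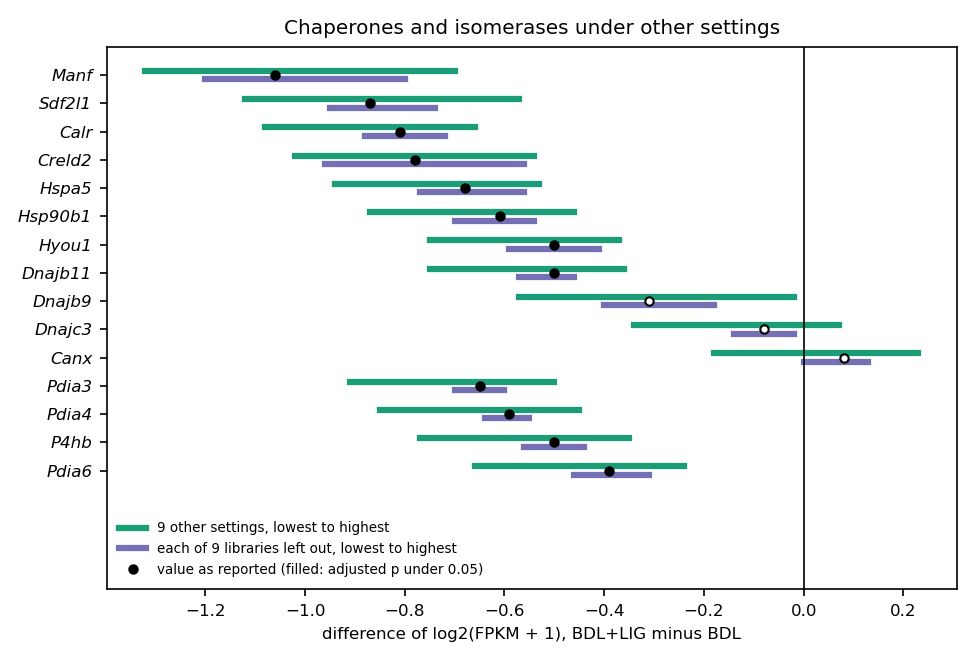
Difference of log2(FPKM + 1), BDL+LIG minus BDL, for the 15 chaperones and disulfide isomerases: points are the values as reported (filled where adjusted p was under 0.05), green bars run from the lowest to the highest value under 9 other settings and purple bars likewise with each of the 9 libraries left out. Both bars of each of the 12 genes that fell lie wholly below 0, while the green bars of Canx and Dnajc3 cross it.

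In the ERAD group 1 gene rose with ligation, and none passed with ligustilide. Of the 5 ERAD members, 1 rose and 0 fell with BDL, and 0 rose and 0 fell with ligustilide, where 1 rose and 1 fell at an unadjusted p under 0.05. Under median-of-ratios scaling 0 rose and 2 fell in each of these comparisons. Edem1, a mannosidase-like lectin that sends misfolded glycoproteins to degradation, was at 17.1, 17.7 and 12.8 FPKM in sham liver, 20.8, 21.8 and 22.3 after BDL and 23, 27 and 25.7 after BDL+LIG. Each group lay above the one before it, and Edem1 rose with BDL (0.43 ± 0.14, adjusted p = 0.0351) and against sham with ligustilide (0.64 ± 0.14, adjusted p = 0.00274), both lost under median-of-ratios scaling (0.16, adjusted p = 0.41, and 0.11, adjusted p = 0.512). The ligase Syvn1 (HRD1) was at 21.8, 14.4 and 18 FPKM in sham liver, 13.8, 13.4 and 14.8 after BDL and 11.1, 12.6 and 11 after BDL+LIG. It fell against sham with ligustilide (-0.58 ± 0.15, adjusted p = 0.00729), and its change with BDL was -0.33 ± 0.15, adjusted p = 0.12, which passed under median-of-ratios scaling (-0.61, adjusted p = 0.00441). Its adaptor Sel1l was at 17, 12.1 and 12.6 FPKM in sham liver, 11.4, 11.8 and 13 after BDL and 16.7, 15.3 and 15.3 after BDL+LIG, where it lay above all BDL libraries (0.36 ± 0.14, adjusted p = 0.109). Both members of this ligase complex were higher in sham library 1 than in the other sham libraries. Selenos, a selenoprotein of the retrotranslocation complex, was at 43.1, 43.5 and 31.7 FPKM in sham liver, 46.7, 46.5 and 49.2 after BDL and 33.4, 34.3 and 36.4 after BDL+LIG, all BDL libraries above the rest (-0.44 ± 0.13, adjusted p = 0.0529 against BDL). Herpud1, which organises the HRD1 complex, ranged from 86.0 to 181 FPKM within sham alone and had a change of 0.03 ± 0.24, adjusted p = 0.936 with ligustilide.

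Both translocon members had their highest mean after BDL, and neither passed the test. Sec61b, a subunit of the channel that imports nascent proteins, was at 83.3, 119 and 146 FPKM in sham liver, 136, 133 and 137 after BDL and 65.9, 108 and 85 after BDL+LIG (-0.67 ± 0.22, adjusted p = 0.0659 against BDL). Ssr1, of the translocon-associated complex, was at 8.62, 9.92 and 9.84 FPKM in sham liver, 12.1, 13.4 and 13.7 after BDL and 7.76, 11.9 and 7.99 after BDL+LIG (-0.49 ± 0.16, adjusted p = 0.0666 against BDL). For both genes the BDL+LIG libraries were below all BDL libraries, and 2 of 2 fell at an unadjusted p under 0.05. With the length trend removed the change of Sec61b against BDL was -0.20 (adjusted p = 0.372), while Ssr1 passed (-0.66, adjusted p = 0.0431).

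Among the 5 sensors and transcription factors, Eif2ak3 rose with BDL and Atf6 and Ern1 rose with ligustilide. In these comparisons 0 fell by limma, and at an unadjusted p under 0.05, 0 fell with BDL and 1 with ligustilide against BDL, while Xbp1 fell with ligustilide against sham. Atf6 was at 6.6, 4.67 and 3.1 FPKM in sham liver, 5.29, 5.51 and 5.63 after BDL and 9.48, 9.72 and 8.8 after BDL+LIG. Ern1 was at 6.27, 3.32 and 4.97 FPKM in sham liver, 4.13, 3.88 and 3.93 after BDL and 7.52, 7.86 and 5.56 after BDL+LIG. With ligustilide both lay above all BDL libraries and both rose, Atf6 1.7-fold (0.67 ± 0.19, adjusted p = 0.0486) and Ern1 1.75-fold (0.67 ± 0.19, adjusted p = 0.0497), each close to the threshold and lost in 5 and 6 of 9 other settings. Between BDL+LIG and sham, Atf6 rose (0.88 ± 0.19, adjusted p = 0.00353) and was called in all 9 other settings. The sham libraries of Ern1 overlapped both other groups. Eif2ak3 was at 2.26, 1.76 and 1.08 FPKM in sham liver, 3.88, 4.15 and 3.85 after BDL and 4.9, 6.83 and 4.53 after BDL+LIG. The groups of Eif2ak3 did not overlap and followed that order, with a rise with BDL (0.90 ± 0.19, adjusted p = 0.00519). Its difference between BDL+LIG and BDL did not pass (0.36 ± 0.19, adjusted p = 0.218). Between BDL+LIG and sham Eif2ak3 rose (1.26 ± 0.19, adjusted p = 0.000386) and was called in all 9 other settings. Xbp1 was at 124, 142 and 189 FPKM in sham liver, 135, 156 and 162 after BDL and 108, 94 and 116 after BDL+LIG, with all BDL+LIG libraries below all others (-0.51 ± 0.16, adjusted p = 0.0666 against BDL and -0.50 ± 0.16, adjusted p = 0.0263 against sham). Atf4 was at 67.2, 49.1 and 49.4 FPKM in sham liver, 52.5, 56 and 56.6 after BDL and 55.3, 45.2 and 48.1 after BDL+LIG, overlapping in every comparison (0.01 ± 0.14, adjusted p = 0.963 with BDL and -0.15 ± 0.14, adjusted p = 0.476 with ligustilide). Between BDL+LIG and sham its change was -0.14 ± 0.14 (adjusted p = 0.417). There it fell under median-of-ratios scaling (-0.69, adjusted p = 0.00284) and was 0.06 with the length trend removed (adjusted p = 0.794).

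The 6 ATF4 and CHOP branch targets did not change as 1 group. With BDL, 1 rose and 1 fell, and with ligustilide 1 rose and 0 fell, with 3 rising and 0 falling at an unadjusted p under 0.05. Their summed level was 23.0, 17.2 and 16 FPKM in sham liver, 20.8, 19.0 and 19.3 after BDL and 26.5, 23.8 and 25.7 after BDL+LIG, so that the whole group stood below most single chaperones. Trib3, a pseudokinase that inhibits AKT and ATF4, was at 4.6, 4.42 and 4.85 FPKM in sham liver, 2.13, 2.04 and 2.16 after BDL and 3.76, 3.59 and 2.51 after BDL+LIG. In the fit as reported it is the only member that fell with BDL (-0.86 ± 0.14, adjusted p = 0.00143), with 154 to 178 fragments in the BDL libraries beside 321 to 347 in sham. Its BDL+LIG libraries lay between the other groups (0.45 ± 0.14, adjusted p = 0.0616 against BDL). Between BDL+LIG and sham Trib3 fell (-0.40 ± 0.14, adjusted p = 0.0334), a call kept in 4 of 9 other settings. Sesn2, a stress-induced sestrin that restrains mTORC1, was at 1.59, 1.17 and 0.366 FPKM in sham liver, 1.94, 2.39 and 1.94 after BDL and 3.61, 4.73 and 4.84 after BDL+LIG. Its groups did not overlap and rose in that order, 2.1-fold from BDL to BDL+LIG (0.80 ± 0.22, adjusted p = 0.0432) and 4.21-fold from sham to BDL+LIG (1.44 ± 0.22, adjusted p = 0.00042). The rise of Sesn2 with BDL (0.64 ± 0.22, adjusted p = 0.0487) was lost in all 9 other settings, and only the difference between BDL+LIG and sham was called in all of them.

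Ddit3, which encodes CHOP, the transcription factor tied to cell death in lasting ER stress, was at 3.84, 2.08 and 1.68 FPKM in sham liver, 2.91, 2.05 and 2.48 after BDL and 1.56, 1.29 and 2.45 after BDL+LIG. The 3 groups overlapped, on 129 to 355 fragments per library, and no change passed in the fit as reported (0.02 ± 0.23, adjusted p = 0.959 with BDL and -0.35 ± 0.23, adjusted p = 0.325 with ligustilide). Between BDL+LIG and sham Ddit3 changed by -0.33 ± 0.23 (adjusted p = 0.258), and under median-of-ratios scaling it fell (-0.68, adjusted p = 0.0171). Ppp1r15a (GADD34), which reverses eIF2α phosphorylation, was at 6.11, 4.88 and 6.82 FPKM in sham liver, 6.68, 6.61 and 6.37 after BDL and 7.32, 9.32 and 9.12 after BDL+LIG, the last above all others (0.34 ± 0.14, adjusted p = 0.133 against BDL). Its change against sham (0.47 ± 0.14, adjusted p = 0.0179) was -0.02 under median-of-ratios scaling. Chac1, which degrades glutathione, was at 0.947, 2.25 and 1.04 FPKM in sham liver, 3.28, 2.19 and 1.89 after BDL and 2.6, 1.92 and 2.65 after BDL+LIG, overlapping throughout (0.54 ± 0.22, adjusted p = 0.0946 with BDL). Asns, asparagine synthetase, ranged from 1.25 to 5.91 FPKM in sham liver, 3.75 to 4.44 after BDL and 2.94 to 7.67 after BDL+LIG (0.16 ± 0.38, adjusted p = 0.793), the widest spread of the group in sham.

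Members carrying the same promoter letters did not all change alike. Of the 8 with ERSE, 5 rose with BDL (Hspa5, Calr, Canx, Pdia6 and Dnajc3), beside 22.9% of all genes. With ligustilide 5 fell (Hspa5, Calr, Hsp90b1, Pdia6 and Creld2), beside 1.79%. Under median-of-ratios scaling none of these rises passed (adjusted p from 0.137 to 0.317), and Syvn1 fell with BDL (-0.61, adjusted p = 0.00441). With the length trend removed, only Calr of these falls passed (adjusted p = 0.0144, the others from 0.0521 to 0.0849). Canx, Dnajc3 and Syvn1 carry ERSE and did not pass with ligustilide. Of the 4 with TGATGNAA, 1 fell with BDL (Trib3) and 0 changed by limma with ligustilide, where 1 rose and 0 fell at an unadjusted p under 0.05.

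Where libraries did not overlap, the count was read against all genes. With ligustilide, 18 members lay wholly below BDL and 8 wholly above, against 10.5% and 40.7% of all genes. With BDL, 15 members lay wholly above sham and 3 wholly below, against 33.7% and 11.3%. Between BDL+LIG and sham, 8 lay wholly above and 8 wholly below, against 45.7% and 9.71%.

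Other genes of the same pathways were counted in 7 lists outside the 33 members. Of 25 other ER folding genes tested, 5 rose and 2 fell with BDL (median 0.09), and 1 rose and 0 fell with ligustilide (median -0.05). Dnajc10, an ER disulfide reductase, rose with BDL (0.86 ± 0.15, adjusted p = 0.00202), and the glucosidases Ganab and Mogs differed, Ganab falling with BDL (-0.33 ± 0.10, adjusted p = 0.0334) and Mogs rising with ligustilide (0.53 ± 0.14, adjusted p = 0.0366). Of 12 oligosaccharyltransferase genes, which attach N-glycans, 5 rose and 0 fell with BDL (median 0.39), and 1 rose and 2 fell with ligustilide (median -0.30). Rpn1, a core subunit, did both: it rose from 37.2 ± 2.95 FPKM in sham to 58.1 ± 2.33 in BDL (0.63 ± 0.11, adjusted p = 0.0023) and was at 41.8 ± 4.24 with ligustilide (SD, n = 3; -0.47 ± 0.11, adjusted p = 0.0297). Of 20 translocon, signal peptidase and signal recognition genes, 5 rose and 0 fell with BDL (median 0.27), and 0 rose and 2 fell with ligustilide (median -0.23), the signal peptidase subunit Spcs2 (-0.71 ± 0.15, adjusted p = 0.02) and Srp19 of the signal recognition particle (-0.82 ± 0.20, adjusted p = 0.0315). Srp19 did not pass with the length trend removed (-0.46, adjusted p = 0.332).

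Of 22 other ERAD genes, 4 rose and 1 fell with BDL (median 0.18), and 2 rose and 0 fell with ligustilide (median 0.03). The ubiquitin-conjugating enzyme Ube2g2 rose with BDL (0.89 ± 0.16, adjusted p = 0.00213), and Nploc4, a cofactor of the p97 ATPase, rose with ligustilide (0.80 ± 0.14, adjusted p = 0.013). Of 20 ER exit (COPII) genes, 2 rose and 1 fell with BDL (median 0.08), and 1 rose and 0 fell with ligustilide (median 0.11), the collagen cargo receptor Mia3 (0.76 ± 0.21, adjusted p = 0.0448). Among 23 other sensors, proteases and stress regulators, 6 rose and 2 fell with BDL (median 0.25), and 2 rose and 0 fell with ligustilide (median 0.14). Atf3, a stress-induced repressor, was at 0.70 ± 0.197 FPKM in sham liver, 9.70 ± 0.501 after BDL and 7.62 ± 1.56 after BDL+LIG (SD, n = 3), so that this gene rose with BDL (2.66 ± 0.16, adjusted p = 2.85e-06) while Ddit3 did not pass. Ddit4, an mTORC1 inhibitor, rose with it (2.47 ± 0.19, adjusted p = 1.23e-05), and Atf5 fell (-0.84 ± 0.15, adjusted p = 0.00195). Creb3l2, a membrane-bound factor related to ATF6, was at 0.783 ± 0.30 FPKM in sham liver, 2.59 ± 0.171 after BDL and 5.66 ± 0.716 after BDL+LIG, and rose in both steps (1.02 ± 0.15, adjusted p = 0.000865, and 0.89 ± 0.15, adjusted p = 0.0135). Its liver-enriched relative Creb3l3 fell with BDL (-0.48 ± 0.12, adjusted p = 0.0151) and rose with ligustilide (0.44 ± 0.12, adjusted p = 0.0479). Among 23 other ATF4 targets of amino acid supply and tRNA charging, 4 rose and 0 fell with BDL (median 0.11), and 1 rose and 0 fell with ligustilide (median 0.06). Cth, of cysteine synthesis, rose with BDL (1.14 ± 0.19, adjusted p = 0.00177), and Aldh18a1, of proline synthesis, rose in both (0.60 ± 0.15, adjusted p = 0.0119, and 0.53 ± 0.15, adjusted p = 0.0451). Where 0 genes of a list passed in a direction, 0 to 4 did at an unadjusted p under 0.05. Median-of-ratios scaling moved the medians of the 7 lists to between -0.21 and 0.17 with BDL and between -0.56 and -0.13 with ligustilide, and the genes named from them kept their sign. On that scale the oligosaccharyltransferase and translocon lists had 0 rising and 0 falling with BDL, so that Rpn1 lost its call there. The ATF4 target list had 2 rising and 6 falling. With ligustilide on that scale, 0 genes rose in the ER folding, COPII and ATF4 target lists, so that Mogs, Mia3 and Aldh18a1 were not called. Among the sensors, proteases and stress regulators 1 rose, so that Creb3l2 and Creb3l3 were not both called. Counts in these lists are to be read beside the 22.9% of all genes that rose and the 6.76% that fell with BDL, and the 9.98% and 1.79% with ligustilide, and several lie near them.

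Transcript length moved with the ligustilide comparison. From the shortest to the longest quintile of all genes, the median change of BDL+LIG against BDL was -0.12, 0.08, 0.19, 0.28 and 0.34, and 19 of the 33 members were in the shorter 2 quintiles. Manf, Sdf2l1 and Creld2 were among the shorter members, at 0.272, 0.347 and 0.427 of the median length, and Ern1 and Atf6 among the longer, at 2.20 and 2.57. With the length trend removed, 9 members fell and 2 rose: Manf changed by -0.70 (adjusted p = 0.0368), Sdf2l1 by -0.57 (adjusted p = 0.0234), Calr by -0.68 (adjusted p = 0.0144) and Sesn2 by 1.05 (adjusted p = 0.0398). Creld2 (-0.54, adjusted p = 0.0804), Atf6 (0.51, adjusted p = 0.0617) and Ern1 (0.51, adjusted p = 0.0745) no longer passed. Neither did Hspa5 (-0.63, adjusted p = 0.0548), Hsp90b1 (-0.58, adjusted p = 0.0521) and Pdia6 (-0.29, adjusted p = 0.0849), while Trib3 did (0.57, adjusted p = 0.0352). Sec61b and Selenos, at 0.173 and 0.382 of the median length, shrank to -0.20 (adjusted p = 0.372) and -0.17 (adjusted p = 0.556).

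**Figure D4:**
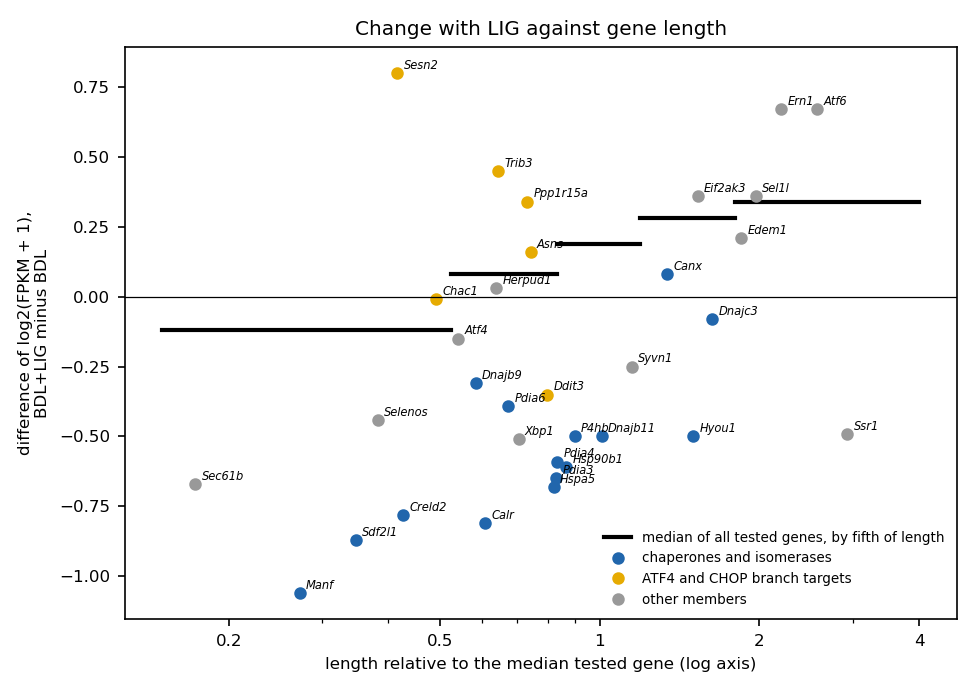
Log2 change of BDL+LIG against BDL for each member by relative transcript length (log axis, 1 being the median tested gene), with the median of all tested genes in each quintile of length as black bars, drawn from 0.15 to 4. The medians rise from -0.12 to 0.34, and the chaperones and disulfide isomerases that fell lie below the bar of their own length.

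In whole liver, fewer cells of a type and less RNA per cell cannot be told apart, and markers of several cell types moved with the groups. Of 10 hepatocyte markers, 9 were in the table, and their summed level was 59100 to 67730 FPKM in sham liver, 38470 to 46060 after BDL and 44910 to 50740 after BDL+LIG. Of these 9, 1 rose and 2 fell with BDL, and 0 rose and 0 fell with ligustilide. Markers of plasma cells, which are rich in ER, summed to 38.4 to 53.1, 106.9 to 114.5 and 153.5 to 174.2 FPKM (5 of 9 in the table, 1 rising with BDL and 2 with ligustilide), and the defining marker Tnfrsf17 was at 0 in all sham and BDL libraries. Exocrine pancreas markers summed to at most 25 FPKM in any library (7 of 12 in the table). Cholangiocyte markers were at 20.9 to 37.8, 413 to 616 and 228.0 to 469 FPKM (8 genes, 7 rising with BDL) and macrophage markers at 127 to 277, 591 to 783 and 668 to 1344 FPKM (9 genes, 9 rising with BDL, 1 with ligustilide). Neutrophil markers were at 4.24 to 6.37, 42.8 to 47.3 and 15.7 to 40.1 FPKM (7 genes, 4 rising with BDL and 1 falling with ligustilide), and stellate cell markers at 5.71 to 19.7, 40.2 to 57.0 and 55.5 to 109 FPKM (8 genes, 4 rising with BDL and 3 with ligustilide). Endothelial markers were at 20.05 to 23.6, 26.9 to 29.4 and 46.2 to 66.8 FPKM (7 genes, 1 rising with BDL and 6 with ligustilide), and those of T and NK cells at 1.01 to 2.24, 1.63 to 2.86 and 2.97 to 11.1 FPKM (5 of 6 in the table). The part of these shifts in the chaperone values was not tested. Sham library 1 also stood apart from the other sham libraries, with a median chi-square per gene of 15.2 and 19.5 to them, beside 6.31 between those; without it, 21 members were called with ligustilide, 5 higher and 16 lower. Exons of Ddit3 and Mars1, Pdia3 and Catsper2, Pdia6 and Atp6v1c2, Ppp1r15a and Tulp2, and Syvn1 and Mrpl49 overlap on opposite strands, and those of Manf and Rbm15b on the same strand, by 11 to 91 bases, and the sources used here do not state whether counting used strand.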

How the data were processed

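Per the labels' protocols, liver RNA was isolated with TRIzol and quantified on a NanoDrop, and the VAHTS Universal V6 kit was used for library preparation. Per the submitters' processing notes, fastp, HISAT2 2.1.0, DESeq2 and the build GRCm39 were used; the sources used here do not state the annotation or the counting program. The authors deposited FPKM for 21470 genes in 9 libraries, and groups and replicate numbers came from the titles. Whole fragments were recovered for 19446 of 19449 genes (99.98%, within 0.01 fragments), Alb, Apoe and COX1 excepted, giving 30893098 to 37381734 per library.

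All 9 libraries were fitted with limma 3.58.1 in R 4.3.3 (trended variance) on log2(FPKM + 1), over 10142 genes with at least 1 FPKM in 3 libraries, at an adjusted p of 0.05, and the code was tested on simulated data. With 3 against 3 libraries, an exact permutation test of 1 gene cannot go below a two-sided p of 0.1, so no such test is given. Per-library values were given for the 3 members of each role with the smallest adjusted p in either of the first 2 comparisons and for Atf6, Ern1, Eif2ak3, Xbp1, Atf4 and Ddit3. Other lists name up to 3 genes per direction with the smallest p among those called, and those given are a part of these. The members and lists were chosen with earlier results of these data known. Alternatives were a pseudocount of 0.1, no filter, median-of-ratios scaling, TPM rescaling, the compared groups alone, a replicate block and leaving out each library. After seeing the data, a voom fit and removal of the length trend, alone and with GC content, were added. Lengths are relative values recovered from the FPKM. Gene overlaps are from GENCODE vM21, an earlier build than that of the table.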

Additional observations from a re-analysis of the deposited data

How the results depend on the processing

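Of the 13, 15 and 16 members called with BDL, with ligustilide against BDL and with ligustilide against sham, 13, 15 and 14 kept their direction in all 9 settings that kept every library, and 3, 3 and 5 were called in all of them. Without each library in turn, all 13, 15 and 16 kept their direction.

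For BDL against sham, 8 members were called with no filter and 6 with median-of-ratios scaling (2 higher, 4 lower), and leaving out a library gave 6 to 17 members and 1883 to 4628 genes. For BDL+LIG against BDL, 9 members were called with a pseudocount of 0.1, 5 with no filter and 9 after TPM rescaling. Genes called, 1194 in the fit as reported, were 623 with no filter, 609 with median-of-ratios scaling, 2056 after TPM rescaling and 3433 with the compared groups alone. Leaving out a library gave 0 to 3137 genes and 0 to 21 members: 40, 0 and 68 genes without BDL 1, 2 and 3 and 0 members each time (20, 20 and 21 at an unadjusted p under 0.05), 5, 5 and 3 members without BDL+LIG 1, 2 and 3, and 9 without sham 2. For BDL+LIG against sham, median-of-ratios scaling gave 23 members (3 higher, 20 lower), and leaving out a library gave 4332 to 6859 genes and 13 to 20 members. Of all genes called, rises were 77.2%, 84.8% and 83.0%, beside 49.0%, 42.2% and 42.4% with median-of-ratios scaling.

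With the replicate block, 742 genes and 8 members were called for BDL+LIG against BDL, 2782 and 12 for BDL against sham and 5125 and 14 for BDL+LIG against sham. The labels state no pairing. Deviations of same-numbered libraries correlated at -0.13, 0 and -0.08 (sham with BDL), 0.25, -0.06 and 0.28 (sham with BDL+LIG) and 0.09, 0.01 and 0.11 (BDL with BDL+LIG). Those of differently numbered libraries ran from -0.07 to 0.11, from -0.30 to 0.14 and from -0.11 to 0.01 in the same order. With 3 libraries a group, these values cannot show whether the numbers pair the libraries.

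Some log2 changes turned sign, among them 2 that were called, Dnajc3 and Ppp1r15a for BDL+LIG against sham. With median-of-ratios scaling these were, for BDL against sham Hsp90b1 -0.17, Sdf2l1 -0.07, Manf -0.15, Herpud1 -0.14, Xbp1 -0.28, Atf6 -0.03, Atf4 -0.28, Ddit3 -0.18, Ppp1r15a -0.12, Selenos -0.01, Sec61b -0.03, for BDL+LIG against BDL Canx -0.18, Herpud1 -0.23, Edem1 -0.04, Asns -0.05, for BDL+LIG against sham Pdia6 -0.43, P4hb -0.38, Dnajc3 -0.09, Herpud1 -0.38, Sel1l -0.34, Ern1 0.00, Ppp1r15a -0.02. With TPM rescaling they were, for BDL+LIG against BDL Dnajc3 0.07, Chac1 0.11, for BDL+LIG against sham Calr 0.03, Hspa5 0.22, Pdia3 0.09, Pdia4 0.12, Dnajb11 0.05, Atf4 0.09, Selenos 0.07, Ssr1 0.17. With the length trend removed they were, for BDL+LIG against BDL Canx -0.01, Atf4 0.02, Chac1 0.19, for BDL+LIG against sham Hspa5 0.02, Atf4 0.06, Selenos 0.20, Sec61b 0.29, and with length and GC removed, for BDL against sham Ddit3 -0.03, for BDL+LIG against BDL Chac1 0.13, for BDL+LIG against sham Hspa5 0.03, Atf4 0.05, Selenos 0.19, Sec61b 0.25. Without each library, changes that turned sign ranged, for BDL against sham Manf -0.09 to 0.30, Herpud1 -0.09 to 0.44, Xbp1 -0.12 to 0.18, Atf6 -0.02 to 0.42, Atf4 -0.06 to 0.16, Ddit3 -0.16 to 0.27, for BDL+LIG against BDL Herpud1 -0.05 to 0.19, Asns -0.16 to 0.41, Chac1 -0.13 to 0.15, for BDL+LIG against sham Hspa5 -0.21 to 0.12, Herpud1 -0.06 to 0.48, Atf4 -0.22 to 0.00, Ssr1 -0.23 to 0.04.

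With 3 libraries a group, and 17 to 77 fragments of Sesn2 or 54 to 125 of Chac1 in sham, changes of the low ATF4 targets rest on few fragments. Whole fragment numbers are not known for the 3 unresolved genes.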
